A study of Mus musculus with 6 samples.

Results

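Cholesterol synthesis and its control by SREBP were followed through 7 genes in Dap12-ko and Dap12-het mouse brain. Srebf2 and Insig1 encode parts of the control circuit, and Hmgcs1, Idi1, Sqle, Sc5d and Dhcr7 encode enzymes of the pathway. All probe sets (groups of short probes for 1 transcript) were taken whose only gene symbol in the platform annotation was 1 of these 7, which gave 15 of the 45101 probe sets on the array and 7 of the 18194 genes named by a single symbol. There were 3 Dap12-ko arrays, from samples named 67, 68 and Ko1, and 3 Dap12-het arrays, from samples named 75, 76 and 81, all from mice aged 1 month. The design text describes the tissue as midbrain, with diencephalon and basal ganglia. The Dap12 adaptor of microglial receptors is the product of Tyrobp. The heterozygotes carry a disrupted copy of the gene as well, and the source label of all 6 samples reads Dap12-deficient, so the group was taken from each title and no wild-type brain enters the comparison. Strain, sex, the form of the disrupted allele and the number of animals per array are not given in the labels, so the spread behind each p-value may be technical.

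Cholesterol is built from acetyl-CoA through mevalonate, isoprenoid units and squalene to the sterols. SREBP2, the product of Srebf2, is held in the endoplasmic reticulum by INSIG proteins when sterols are plentiful, and is otherwise carried by SCAP to the Golgi and cut to release a factor that switches on the synthesis genes, Insig1 and Srebf2 itself among them. The blood-brain barrier keeps out circulating cholesterol, so the brain makes its own, with oligodendrocytes as large producers while myelin forms and astrocytes as suppliers of neurons.

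The stretches before the start sites of the 3 genes on which the comparison turns are shown because SREBP2 acts at such sites together with NF-Y and Sp1. Sequences are RefSeq's for GRCm38.p6, 5′ to 3′ on the gene's own strand, and run from 250 bases before to 50 bases after the annotated start. Capitals mark matches on either strand to TCACNCCAC, the core of a sterol regulatory element, and to CCAAT, the NF-Y box (ATTGG when read on the other strand); no capitalised matches overlap. Sc5d lies at chr9:42264251-42264550 on the minus strand, Srebf2 at chr15:82147019-82147318 on the plus strand and Hmgcs1 at chr13:119690101-119690400 on the plus strand.
Sc5d: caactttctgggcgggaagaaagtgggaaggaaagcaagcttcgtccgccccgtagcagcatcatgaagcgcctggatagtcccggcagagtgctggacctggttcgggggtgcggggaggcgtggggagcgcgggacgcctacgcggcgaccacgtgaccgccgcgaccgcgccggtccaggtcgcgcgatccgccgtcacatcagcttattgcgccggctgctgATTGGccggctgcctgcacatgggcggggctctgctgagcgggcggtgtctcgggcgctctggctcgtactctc
Srebf2: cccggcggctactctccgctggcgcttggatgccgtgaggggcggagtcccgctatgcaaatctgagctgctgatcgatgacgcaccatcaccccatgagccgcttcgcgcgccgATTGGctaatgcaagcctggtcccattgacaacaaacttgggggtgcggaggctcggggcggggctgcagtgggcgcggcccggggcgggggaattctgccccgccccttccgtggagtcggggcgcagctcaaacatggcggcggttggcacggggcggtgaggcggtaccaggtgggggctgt
Hmgcs1: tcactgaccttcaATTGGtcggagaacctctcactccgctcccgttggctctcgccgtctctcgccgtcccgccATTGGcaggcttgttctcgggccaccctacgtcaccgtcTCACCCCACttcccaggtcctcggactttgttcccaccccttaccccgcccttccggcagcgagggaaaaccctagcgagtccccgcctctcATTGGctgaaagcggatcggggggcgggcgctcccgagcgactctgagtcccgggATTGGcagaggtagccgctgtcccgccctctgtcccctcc
In the table used, 6 of the 7 genes had a promoter, and Dhcr7 had 3, which made 8 in all. TCACNCCAC was found in 1 of the 8, that of Hmgcs1, starting at base 114, and in 1.24% of the 32851 mouse promoters searched. CCAAT was found in 6 of the 8, against 37.4% of all promoters. The Sp1 box GGGCGG was found in 7 of the 8, against 35.7% of all promoters. A match is a description of the letters and not a measured binding site.

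The deposited values are linear signal intensities, and the trimmed mean of each array was 100. All log2 changes are Dap12-ko minus Dap12-het on the log2(signal + 16) scale, which understates the change of dim probe sets. Tyrobp was lower on every Dap12-ko array, at signals of 2.28, 23.7 and 12.9 in samples 67, 68 and Ko1, against 70.7, 68.2 and 77.6 in Dap12-het 75, 76 and 81, as the labels call for (log2 change -1.68 ± 0.33, SE; limma adjusted p = 0.0439). Of the omissions of a single array, that of Dap12-ko Ko1 alone kept this call, and the position of its probes relative to the disrupted part of the gene was not examined. Array medians were 24.7 to 40.4 in Dap12-ko and 20.3 to 22.0 in Dap12-het. All 18 probe sets of spiked hybridisation controls were also higher on every Dap12-ko array, by 3.47 to 7.85 times, and the part of such array differences in the results below was not tested. The highest signal on an array was 16673 to 46271 in Dap12-ko and 7417 to 7790 in Dap12-het. The 3'/5' ratio, a sign of RNA quality, was 0.702 to 1.21 in Dap12-ko and 0.997 to 1.42 in Dap12-het for Gapdh, and 1.76 to 2.33 in Dap12-ko and 1.59 to 2.12 in Dap12-het for Actb, with overlap in both. Markers of every tissue and cell type looked for had signals above 0 on all arrays. That does not show detection, because Tyrobp also read above 0 on every Dap12-ko array. Regions were unequally represented. The summed signal of 3 striatal genes (Drd1, Drd2 and Ppp1r1b) was 1861 on Dap12-ko Ko1 and 1865 on Dap12-het 81, against 228 to 461 on the other 4 arrays. That of 3 dopamine neuron genes (Th, Slc6a3 and Ddc) was 882, 646 and 258 on the Dap12-ko arrays and 1064, 886 and 247 on the Dap12-het arrays. Dap12-ko Ko1 and Dap12-het 81 thus stood apart from the other 4 arrays in the same way.

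The 7 genes showed no shared direction between the groups. Of the 15 probe sets, 14 passed a filter that kept the upper 50% of probe sets by mean level, and 1 of these, a probe set of Sc5d, was higher in Dap12-ko at a limma adjusted p under 0.05. None was called lower, and 2 of the 14 had an unadjusted p under 0.05, where 20.9% of all probe sets tested did. Across all 22518 probe sets tested, 1.98% were called, 1.24% as higher and 0.733% as lower in Dap12-ko. With each array centred on its median, 17.2% of the calls were higher, in place of 62.9%. Changes were above 0 for 9 of the 14 and below 0 for 5, and their median was 0.11 on the log2 scale, against 0.00 over all probe sets tested. Under the same centring, which lowers the median change of all probe sets by 0.40, the changes were above 0 for 4 and below 0 for 10. All 3 Dap12-ko signals lay above all 3 Dap12-het signals for 2 of the 14, where 14.9% of all probe sets tested did so, and below them for 1, where 12.5% did so. These shares rest on few probe sets, of which several read the same gene.

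**Figure D1:**
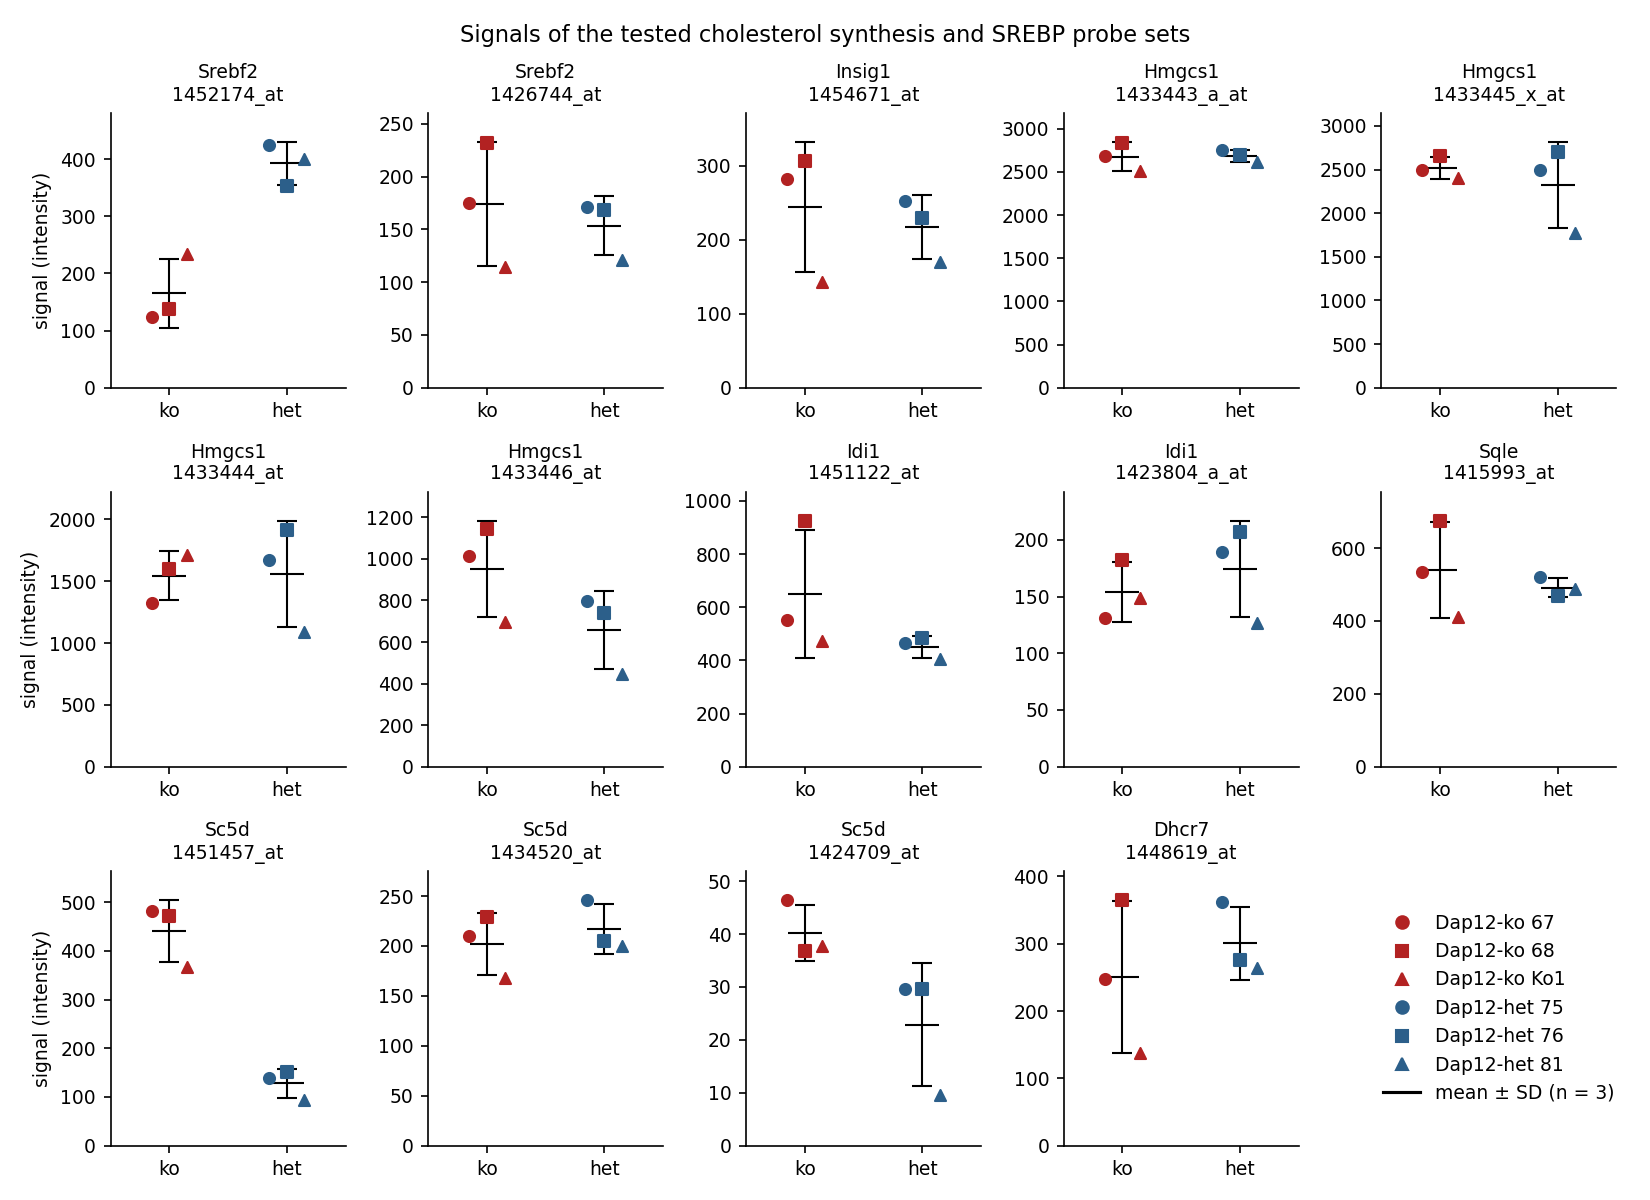
Signal of each probe set of the 7 genes on each array (linear axis from 0, intensity units), for the 14 tested probe sets, with the mean and SD of each group (n = 3) and Dap12-ko left of Dap12-het. The 3 Dap12-ko arrays sit above the 3 Dap12-het arrays for Sc5d 1451457_at and below them for Srebf2 1452174_at, while the groups overlap for most other probe sets.

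Srebf2, the gene of the factor that drives the synthesis genes, gave unlike readings on its pair of probe sets. Probe set 1452174_at read 124, 137 and 234 on Dap12-ko 67, 68 and Ko1, against 425, 352 and 400 on Dap12-het 75, 76 and 81. Every Dap12-ko array was below every Dap12-het array, and Ko1 lay closest to the heterozygotes. The means were 165 ± 60.1 in Dap12-ko and 392 ± 36.8 in Dap12-het (SD, n = 3 each), a ratio of 0.421. The log2 change of -1.22 ± 0.25 (SE; 95% interval -1.79 to -0.64) just missed the threshold (limma adjusted p = 0.0507; exact two-sided permutation p = 0.1, as small as 3 arrays against 3 allow). It passed in 8 of 18 alternatives, among them the omission of Dap12-ko Ko1, and not after quantile normalization or when any other single array was left out (limma adjusted p 0.00139 to 0.236 over the 18). Probe set 1426744_at, annotated to the same source record, read 175, 232 and 115 on the Dap12-ko arrays and 171, 168 and 121 on the Dap12-het arrays, so the groups overlapped. Its log2 change was 0.13 ± 0.27 (95% interval -0.49 to 0.75; limma adjusted p = 0.823).

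Insig1 encodes a retention protein of the SCAP and SREBP complex and is itself an SREBP target. Its probe set 1454671_at read 282, 306 and 143 on Dap12-ko 67, 68 and Ko1, against 253, 230 and 169 on Dap12-het 75, 76 and 81. The lowest array of each group was again Ko1 or 81, and the spread within Dap12-ko exceeded the difference between the groups. The log2 change was 0.11 ± 0.30 (95% interval -0.57 to 0.79; limma adjusted p = 0.872).

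Hmgcs1, the cytosolic synthase that makes HMG-CoA for the mevalonate route, was measured by 5 probe sets, 4 of them from the same source record. Its brightest, 1433443_a_at, read 2682, 2841 and 2513 on Dap12-ko 67, 68 and Ko1, against 2750, 2692 and 2612 on Dap12-het 75, 76 and 81. The arrays of both groups interleaved within a narrow range, and the log2 change was 0.00 ± 0.14 (95% interval -0.33 to 0.32; limma adjusted p = 0.988), the tightest interval among the tested probe sets of the 7 genes. Probe sets 1433445_x_at and 1433444_at had log2 changes of 0.14 ± 0.19 and 0.02 ± 0.23 (limma adjusted p = 0.716 and 0.973). Probe set 1433446_at read 1015, 1142 and 698 on the Dap12-ko arrays and 796, 737 and 444 on the Dap12-het arrays. Dap12-ko 67 and 68 were higher than all 3 heterozygotes there, but Ko1 was lower than 75 and 76, and the log2 change was 0.53 ± 0.27 (95% interval -0.09 to 1.16; limma adjusted p = 0.305). The remaining probe set, 1441536_at, fell below the filter, with a highest signal of 23.5 in Dap12-ko and of 11.5 in Dap12-het.

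Idi1, the isomerase that supplies the isoprenoid units joined into squalene, also had a pair of probe sets with unlike readings. The brighter, 1451122_at, read 551, 923 and 474 on Dap12-ko 67, 68 and Ko1, against 464, 484 and 404 on Dap12-het 75, 76 and 81. Dap12-ko 68 alone stood well above the rest, and Ko1 fell among the heterozygotes. The log2 change was 0.46 ± 0.26 (95% interval -0.12 to 1.04; limma adjusted p = 0.345). The dimmer, 1423804_a_at, read 131, 182 and 149 on the Dap12-ko arrays and 189, 207 and 127 on the Dap12-het arrays, with a log2 change of -0.15 ± 0.24 (limma adjusted p = 0.766). The groups overlapped on both.

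Sqle encodes squalene epoxidase, which commits squalene to sterol synthesis. Its probe set 1415993_at read 534, 673 and 412 on Dap12-ko 67, 68 and Ko1, against 520, 467 and 488 on Dap12-het 75, 76 and 81. The Dap12-ko arrays spanned a wider range, to both sides of the heterozygotes. The log2 change was 0.10 ± 0.21 (95% interval -0.38 to 0.59; limma adjusted p = 0.814).

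Sc5d, the lathosterol oxidase near the end of the pathway, gave the single call. Probe set 1451457_at read 481, 472 and 368 on Dap12-ko 67, 68 and Ko1, against 139, 151 and 94.2 on Dap12-het 75, 76 and 81. The groups did not overlap, and the lowest Dap12-ko array was above the highest heterozygote. The means were 440 ± 63.1 in Dap12-ko and 128 ± 29.8 in Dap12-het (SD, n = 3 each), a ratio of 3.44. The log2 change of 1.68 ± 0.23 (95% interval 1.16 to 2.19) passed the threshold (limma adjusted p = 0.0205; exact two-sided permutation p = 0.1). Leaving out Dap12-ko 67 or 68 or any Dap12-het array ended the call, at limma adjusted p of 0.0799 to 0.127, and leaving out Dap12-ko Ko1 did not.

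The other probe sets of Sc5d did not pass. Probe set 1434520_at, from a different source record, read 210, 229 and 168 on the Dap12-ko arrays and 246, 204 and 200.2 on the Dap12-het arrays, with a log2 change of -0.10 ± 0.20 (95% interval -0.56 to 0.36; limma adjusted p = 0.818). The groups overlapped. Probe set 1424709_at, from the same record as 1451457_at, read 46.4, 36.7 and 37.8 on the Dap12-ko arrays and 29.6, 29.6 and 9.48 on the Dap12-het arrays. All 3 Dap12-ko signals were above the heterozygotes, and the log2 change was 0.58 ± 0.32 (95% interval -0.14 to 1.30; limma adjusted p = 0.333). Averaged over the 3 probe sets, the change of Sc5d was 0.72 ± 0.20 (limma adjusted p = 0.121).

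Dhcr7 encodes the reductase that turns the immediate precursor into cholesterol. Its probe set 1448619_at read 248, 364 and 138 on Dap12-ko 67, 68 and Ko1, against 362, 276 and 263 on Dap12-het 75, 76 and 81. The highest and the lowest of the 6 signals were both Dap12-ko arrays, 68 and Ko1. The log2 change was -0.33 ± 0.32 (95% interval -1.06 to 0.40; limma adjusted p = 0.596).

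**Figure D2:**
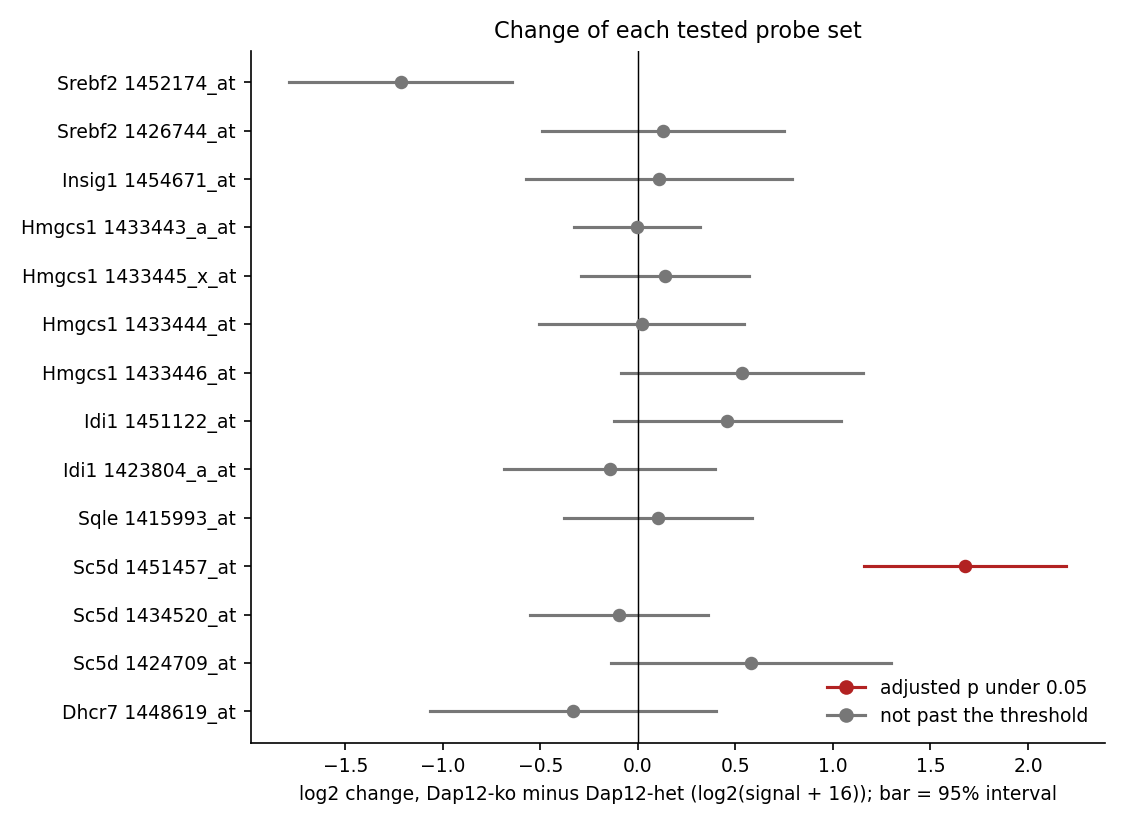
Log2 change, Dap12-ko minus Dap12-het, of the 14 tested probe sets with 95% intervals from limma. Sc5d 1451457_at at 1.68 is the single probe set past the threshold, Srebf2 1452174_at at -1.22 lies furthest below 0, and the intervals of the other 12 include 0.

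The disagreement between probe sets of a gene was measured within each array, where any scaling of the array as a whole nearly cancels for bright probe sets. It cancels less for dim ones such as Sc5d 1424709_at, whose log2 change was 0.58 as reported and 0.98 with a floor of 1. Array differences that depend on the signal level do not cancel. In each gene the probe set with the largest change was set against every other, which made 7 pairs, so the shifts are a description. For Sc5d, log2 1451457_at minus log2 1434520_at was 1.06 ± 0.07 in Dap12-ko and -0.71 ± 0.29 in Dap12-het (SD, n = 3 each), a shift of 1.77 between the groups. Against 1424709_at, from the same record, the difference was 3.01 ± 0.19 in Dap12-ko and 1.92 ± 0.18 in Dap12-het, a shift of 1.10. For Srebf2, log2 1452174_at minus log2 1426744_at was -0.07 ± 0.88 in Dap12-ko and 1.28 ± 0.30 in Dap12-het, a shift of -1.35. For Idi1, log2 1451122_at minus log2 1423804_a_at was 1.92 ± 0.34 in Dap12-ko and 1.32 ± 0.21 in Dap12-het, a shift of 0.60. In each of these pairs the groups did not overlap. The 3 pairs of Hmgcs1, with 1433446_at set against its other tested probe sets, had smaller shifts of 0.54, 0.40 and 0.51, and the groups overlapped in each. Which transcript or sequence each probe set reads was not tested.

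**Figure D3:**
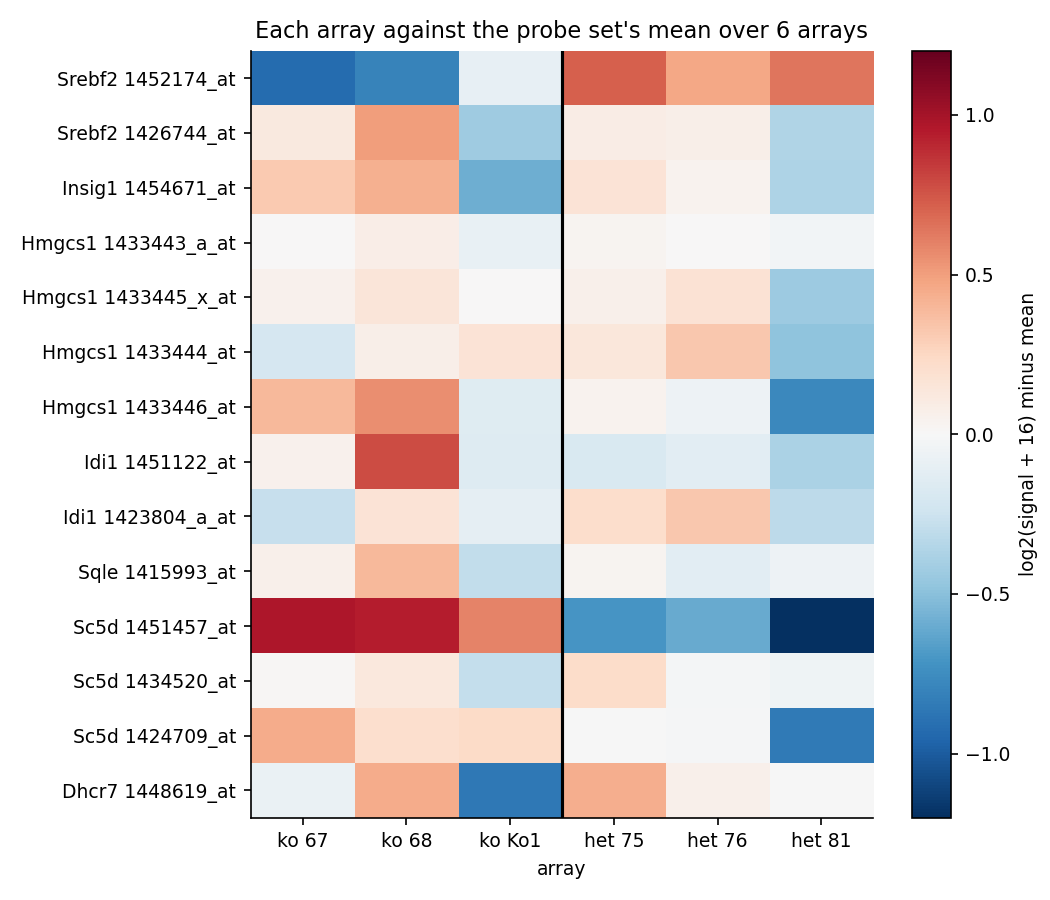
Log2(signal + 16) of each of the 14 tested probe sets (down the page) on each array (across, Dap12-ko left of Dap12-het), minus the probe set's mean over the 6 arrays, in colour with red above and blue below that mean. Dap12-ko 68 is the highest array for 7 of the 14, Dap12-ko Ko1 or Dap12-het 81 the lowest for 13, and Sc5d 1451457_at and Srebf2 1452174_at show the groups apart.

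Most of the 7 genes followed a pattern of arrays that crossed the groups. The mean of the centred log2 levels of the 7 brightest probe sets was 0.06, 0.33 and -0.21 on Dap12-ko 67, 68 and Ko1 and 0.07, -0.04 and -0.20 on Dap12-het 75, 76 and 81. Of the 14 tested probe sets, 13 were lowest on Dap12-ko Ko1 or Dap12-het 81, which is 92.9% against 40.2% of all probe sets tested, and none was highest there, against 34.3%. These are the same 2 arrays that were high in striatal and low in dopamine neuron markers, and 3 thalamic markers (Tcf7l2, Slc17a6 and Rora) summed to 832 on Ko1 and 1422 on 81, against 2420 to 3023 on the other 4. The part of regional make-up in these levels was not tested. In such bulk tissue, fewer cells of a type and less RNA per cell cannot be told apart.

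The marker lists of oligodendrocytes, the myelin-forming cells, and of neurons held probe sets called higher in Dap12-ko, beside members with changes below 0. The summed signal of 10 oligodendrocyte genes was 69211, 54807 and 29811 on Dap12-ko 67, 68 and Ko1, against 23178, 22546 and 22255 on Dap12-het 75, 76 and 81. Mbp, the basic protein of myelin, made up much of this gap: without it the other 9 genes summed to 33055, 30085 and 18147 on the Dap12-ko arrays and 17265, 16107 and 16456 on the Dap12-het arrays. Of the 25 tested oligodendrocyte probe sets, 8 were called higher and none lower in Dap12-ko (1.24% of all probe sets tested were called higher), and by the brightest probe set 2 of 10 genes were. Mbp read 36156, 24722 and 11664 on the Dap12-ko arrays and 5913, 6439 and 5799 on the Dap12-het arrays, and rose by 1.85 ± 0.35 (limma adjusted p = 0.04); its Dap12-het signals lay near the highest on those arrays. Mag, an adhesion protein of myelin, had a log2 change of -0.05 ± 0.38 (limma adjusted p = 0.955). The summed signal of 8 astrocyte genes was 14053 to 14981 in Dap12-ko and 10935 to 13480 in Dap12-het. Of their 25 tested probe sets, 0 were called by limma. An unadjusted p under 0.05 was found for 9 of the 25, against 20.9% of all probe sets tested. By brightest probe set 5 of the 8 astrocyte genes had changes below 0 and 3 above. Gja1, the gap junction gene of astrocytes, had 0.49 ± 0.21 (limma adjusted p = 0.234), and Gfap, their filament gene, had -1.25 ± 0.52 (limma adjusted p = 0.219). Of 7 neuronal genes, summed at 17351 to 21595 in Dap12-ko and 14819 to 15095 in Dap12-het, 4 of 17 probe sets were called higher, at 2.61 and 2.07 for Syt1 and 2.47 and 2.73 for Map2 (limma adjusted p = 0.0171 each), and none was called lower. By brightest probe set none of the 7 was called by limma and 3 had an unadjusted p under 0.05, with Snap25 at 0.88 ± 0.19 (limma adjusted p = 0.0549) and Tubb3 at -0.44 ± 0.17 (limma adjusted p = 0.188). The sum of 6 microglial genes was 2107 to 2363 in Dap12-ko and 1474 to 1810 in Dap12-het. Of their 8 tested probe sets, 0 were called by limma. By brightest probe set 4 of the 6 had changes above 0 and 2 below. Among the Dap12-ko arrays the 7 genes were highest on 68 and lowest on Ko1, an order that neither the oligodendrocyte nor the astrocyte sum had. Among the Dap12-het arrays the oligodendrocyte sum and the 7 genes both fell from 75 to 76 to 81. The neuronal sum had the order of the 7 genes among the Dap12-ko arrays, at 20595, 21595 and 17351 on 67, 68 and Ko1. On Dap12-het 75, 76 and 81 the neuronal sum was 14918, 15095 and 14819, highest on 76, where the 7 genes were highest on 75. The signals of the called Sc5d probe set had the order of the oligodendrocyte sum among the Dap12-ko arrays, being lowest on Ko1. Among the Dap12-het arrays the orders differed, with Sc5d highest on 76, at 151, and the sum highest on 75, at 23178. Being lowest on Ko1 was not particular to Sc5d. Among the Dap12-ko arrays, Ko1 was the lowest for 10 of the 14 tested probe sets of the 7 genes. The share over all probe sets tested was not counted. The part of oligodendrocyte content in the Sc5d difference was not tested.

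The rest of the pathway was read through 3 lists of other genes, using the brightest tested probe set of each. Of 44 listed genes, 34 were tested, and none was called by limma in either direction, with 7 at an unadjusted p under 0.05, a share close to the 20.9% of all probe sets tested. The remaining 10 either fell below the filter or are not analysed here. Unadjusted limma p was under 0.05 for 0 of 14 synthesis enzymes, 3 of 8 SREBP control genes and 4 of 12 uptake genes. Among the other synthesis enzymes, 14 of 17 were tested, 9 had changes above 0 and 5 below, and the median was 0.11, but with arrays centred on their medians 2 were above 0 and 12 below. The largest positive values were 0.67 ± 0.33 for Hsd17b7, a sterol reductase (limma adjusted p = 0.289), and 0.46 ± 0.27 for Msmo1, a sterol demethylating oxidase (limma adjusted p = 0.362). Cyp51, the lanosterol demethylase, had 0.36 ± 0.22 (limma adjusted p = 0.391). The other tested probe set of Cyp51 went the other way, at -0.52 ± 0.37. Those of Hsd17b7 had 0.64 ± 0.36 and 0.78 ± 0.41. Mvk, mevalonate kinase, had the most negative value at -0.84 ± 0.55 (limma adjusted p = 0.421). That value was set largely by a signal of 5.41 on Dap12-ko 67, where the other 5 arrays read 70.1 to 103. The other tested probe set of Mvk had -0.07 ± 0.26.

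Ggps1, the synthase of geranylgeranyl diphosphate on a side branch of the isoprenoid route, repeated the disagreement between probe sets. Its probe set 1419505_a_at read 142, 200.2 and 89.7 on Dap12-ko 67, 68 and Ko1, against 38.4, 39.4 and 39.1 on Dap12-het 75, 76 and 81, and rose by 1.48 ± 0.28 (limma adjusted p = 0.0413). Probe set 1419805_s_at read 174, 145 and 138 on the Dap12-ko arrays and 59.0, 70.8 and 58.4 on the Dap12-het arrays, and rose by 1.09 ± 0.20 (limma adjusted p = 0.0391). Each was called in 7 of 17 alternatives, and lost its call after quantile normalization, with arrays centred on their medians, without a filter, without a trend and when any array other than Dap12-ko Ko1 was left out. The brightest probe set, 1419506_at, had a log2 change of 0.16 ± 0.19 (limma adjusted p = 0.664), and 1429356_s_at, with all Dap12-ko signals above the heterozygotes, had 0.45 ± 0.20 (limma adjusted p = 0.252). These were the 2 calls among the 56 tested probe sets of the 3 lists, where 1.98% of all probe sets tested were called.

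No gene of SREBP control was called by limma. Of 8 genes tested of 12, 6 had changes below 0 and 2 above, with a median of -0.32 (-0.20 after quantile normalization). Of all 22518 probe sets tested, 11228 had changes below 0. An unadjusted p under 0.05 was found for 3 of the 8, against 20.9% of all probe sets tested. All 3 Dap12-ko signals lay below all 3 Dap12-het signals for 2 of the 8, against 12.5%. These shares rest on few genes. Scap, the escort of SREBP, read 319, 360.0 and 365 on Dap12-ko 67, 68 and Ko1, against 603, 528 and 706 on Dap12-het 75, 76 and 81. The groups did not overlap, and the log2 change was -0.78 ± 0.18 (limma adjusted p = 0.0689; 0.0122 to 0.273 over 18 alternatives, of which 4 passed). Rnf145, a sterol-responsive ubiquitin ligase that acts on SCAP, read 552, 439 and 756 on the Dap12-ko arrays and 1076, 913 and 1083 on the Dap12-het arrays, again without overlap (-0.83 ± 0.22; limma adjusted p = 0.0901; 0.00397 to 0.320 over 18 alternatives, of which 3 passed). Srebf1, the sister factor that mainly drives fatty acid synthesis, had a log2 change of 0.05 ± 0.19 (limma adjusted p = 0.917). Insig2, the partner of Insig1, had -0.49 ± 0.23 (limma adjusted p = 0.27). The other tested probe sets of Insig2 had -0.01 ± 0.20 and -0.64 ± 0.32. Rnf139, another ubiquitin ligase of this circuit, had -0.61 ± 0.24 (limma adjusted p = 0.192).

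Of the uptake, transport and turnover genes, 12 of 15 were tested, with a median of 0.05, 6 changes above 0 and 6 below. All 3 Dap12-ko signals lay below all 3 Dap12-het signals for 5 of the 12, where 12.5% of all probe sets tested did so. They lay above for 2 of the 12, where 14.9% did so. Apoe, the main lipoprotein of the brain, read 5708, 5006 and 4592 on Dap12-ko 67, 68 and Ko1, against 3546, 3735 and 3364 on Dap12-het 75, 76 and 81. The groups did not overlap, but the log2 change of 0.52 ± 0.15 did not pass (limma adjusted p = 0.102), and it was 0.03 after quantile normalization and 0.12 with arrays centred on their medians. Cyp46a1, the neuronal hydroxylase through which cholesterol leaves the brain, read 466, 521 and 535 on the Dap12-ko arrays and 664, 731 and 942 on the Dap12-het arrays, with a log2 change of -0.59 ± 0.19 (limma adjusted p = 0.133). Npc2, the lysosomal sterol carrier, had 0.69 ± 0.27 (limma adjusted p = 0.199). The other tested probe sets of Npc2 had -0.14 ± 0.18 and -0.08 ± 0.26. Stard4 and Abca1 also had tested probe sets with unlike log2 changes, none of them called by limma. These changes were 0.37, -0.22 and 1.77 for Stard4, and -0.28 and 1.31 for Abca1. Mylip, a ligase that removes lipoprotein receptors, had 0.55 ± 0.22 (limma adjusted p = 0.205). Without Dap12-ko Ko1, 11 of the 34 genes of the 3 lists were called, where 23.2% of all probe sets tested were, and leaving out any other single array gave 0.

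**Figure D4:**
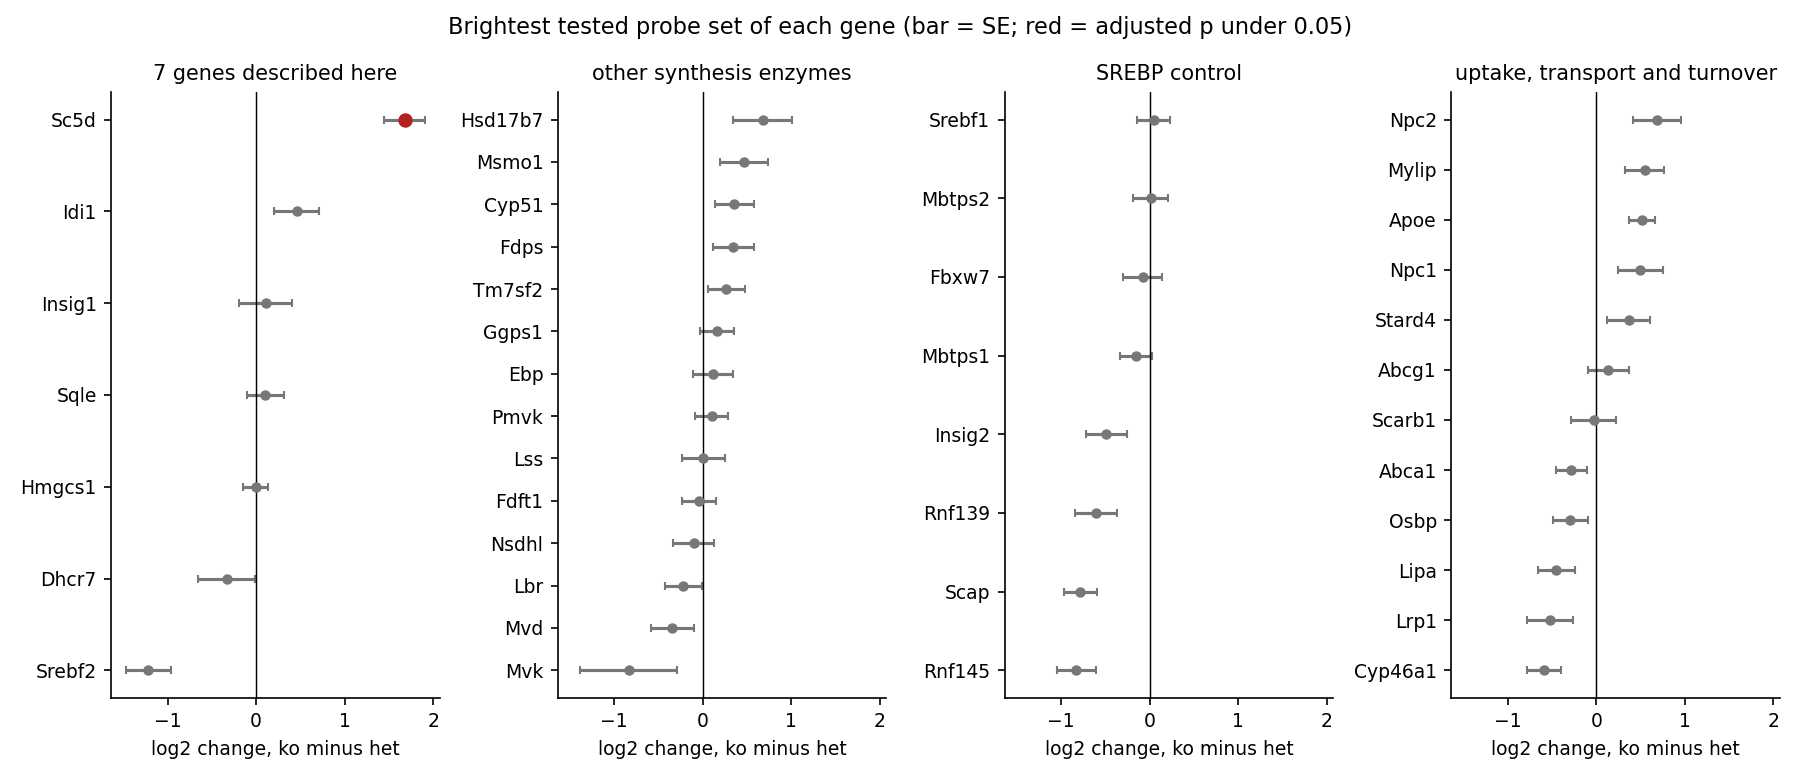
Log2 change, Dap12-ko minus Dap12-het, of the brightest tested probe set of each pathway gene, by list, with SE bars. None of the 34 genes of the 3 lists passed the threshold. Of the 8 SREBP control genes 6 lie below 0, where 11228 of all 22518 probe sets tested do.

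The array pattern of the 7 genes was also found in other genes. Among 11460 other genes, those whose log2 levels over the 6 arrays correlated most closely with the mean of the 7 were Tpd52l2 (Pearson r = 0.995), 9530068E07Rik (r = 0.994), Sdf2l1 (r = 0.99), Fubp1 (r = 0.989) and Zswim4 (r = 0.988). Fubp1, for example, read 196, 298 and 138 on Dap12-ko 67, 68 and Ko1 and 192, 160 and 137 on Dap12-het 75, 76 and 81. With 6 arrays and a search over so many genes, these correlations are a description, and the points share the scaling of each array. Within the 7, each brightest probe set was set against the mean of the other 6 genes, which gave r of 0.93 for Hmgcs1, 0.89 for Sqle, 0.85 for Insig1, 0.77 for Idi1 and 0.50 for Dhcr7, but -0.22 for Sc5d and -0.78 for Srebf2 1452174_at. The lowest r belonged to the probe sets of Sc5d and Srebf2 that differed most between the groups. An r over all 6 arrays includes the difference between the groups, so these values are not a separate result. Within each group Sc5d 1451457_at was lowest on Ko1 or 81, as was the mean of the 7 genes.

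**Figure D5:**
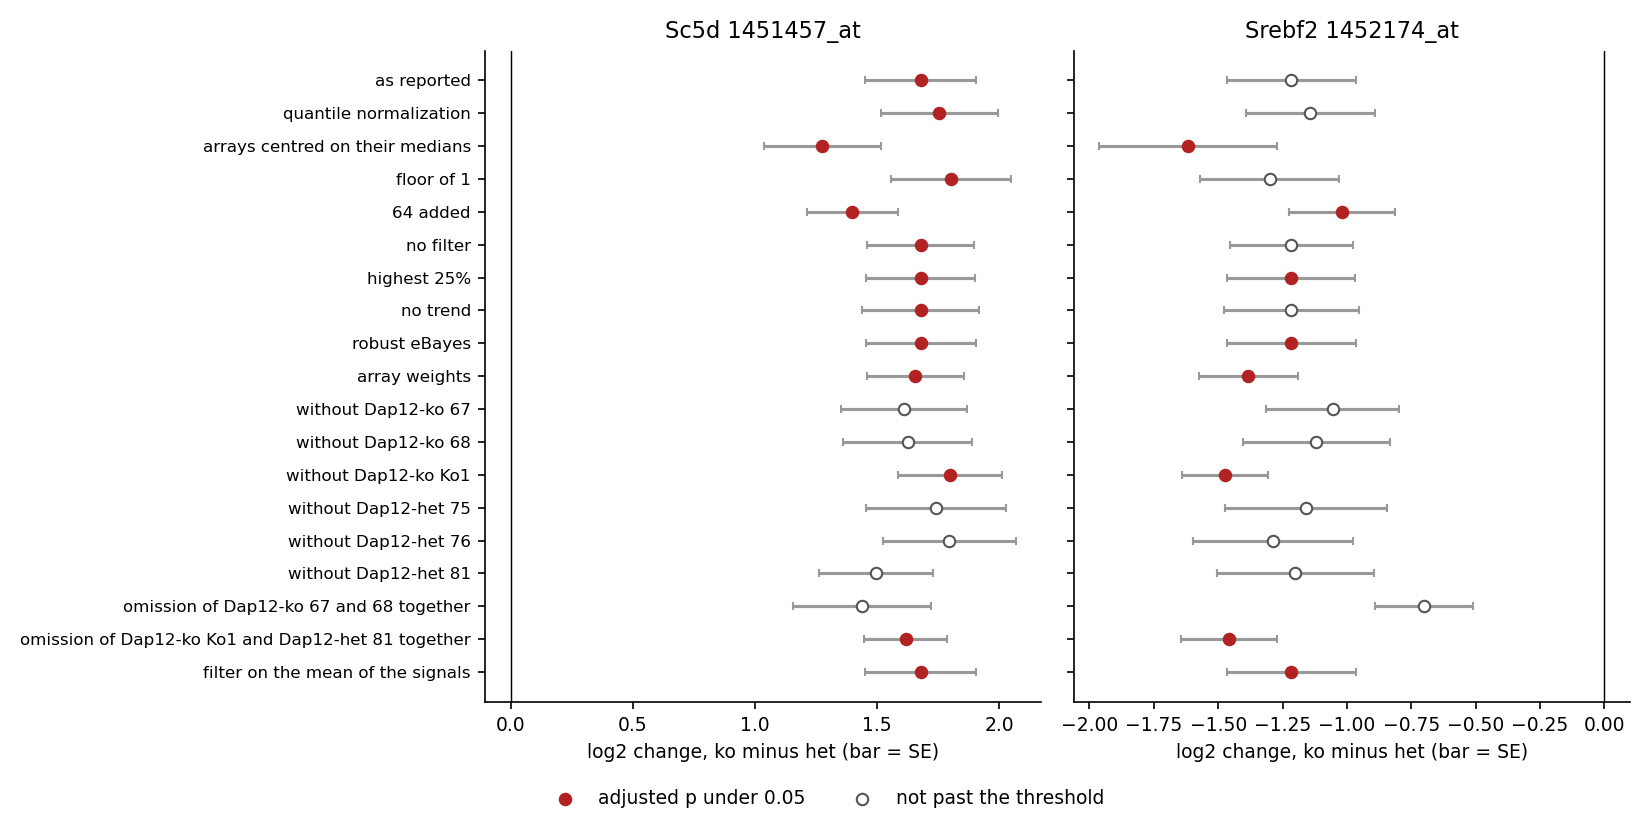
Log2 change, Dap12-ko minus Dap12-het, with SE, of Sc5d 1451457_at (left) and Srebf2 1452174_at (right) as reported and under each alternative. Sc5d stays above 0 throughout and passes the threshold in 12 of 18 alternatives, and Srebf2 stays below 0 throughout and passes in 8 of 18.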

How the data were processed

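RNA from 6 mouse brain samples was extracted with Trizol and RNeasy, labelled by the Affymetrix one-cycle method and read with GCOS, per the labels' protocols and the submitters' processing notes; the sources used here do not give its version, algorithm or scale factors. The deposited values are linear signal intensities, which average 100 per array once 2% is trimmed from either end, a scaling left as it was. Here 16 was added, log2 taken, and the upper 50% of 45037 non-control probe sets by mean log2 value kept. limma 3.58.1 in R 4.3.3 fitted group over all 22518 (eBayes with trend, two-sided, Benjamini-Hochberg, threshold 0.05); errors of changes are SE. Only probe sets with a single symbol were named. The number of arrays limits the precision. The procedure was checked on simulated data in which probe sets varied independently. No differences between whole arrays were put in, so the check does not cover those seen here. The 7 genes and all lists were chosen with earlier results of these data known. Named were the 4 genes with the smallest p per list, some fixed by name, and the 5 genes most like the 7 over the arrays. Ggps1, Gfap, Mag, Tubb3, Syt1, Map2, Stard4 and Abca1 were added after their values were seen. Alternatives are given in the closing section.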

Additional observations from a re-analysis of the deposited data

Results flagged for a closer look

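All 18 probe sets of spiked hybridisation controls, which the comparisons of brain genes do not use, gave higher signals on each Dap12-ko array than on each Dap12-het array, at 3.47 to 7.85 times. These transcripts are added during processing and carry no genotype. The arrays' handling and the genotype cannot be told apart in these 6 arrays, and the part of the control difference in the Sc5d and Srebf2 differences was not tested.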

How the results depend on the processing

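Over 251 recomputed changes of single probe sets, 206 kept their direction and their side of the threshold, 10 newly passed, 6 no longer passed and 29 changed sign, all 29 in probe sets that had not been called. The 445 probe sets called among all tested became 131 after quantile normalization, 124 without a filter, 180 without a trend, 4786 with array weights, and 4478 with Dap12-ko Ko1 and Dap12-het 81 both left out; leaving out 1 array gave 0 to 5220. It was 0 by limma without Dap12-ko 67 or 68 or Dap12-het 75 or 81 (3926, 3566, 2846 and 3207 at an unadjusted p under 0.05), 29 without Dap12-het 76 and 5220 without Dap12-ko Ko1. Centring arrays on their medians gave 581 calls, 17.2% of them higher in place of 62.9%, and the highest 25% gave 47.5% higher. The count among the 14 probe sets went from 1 to 2 with median centring, 64 added, the highest 25%, robust eBayes and a filter on mean signal, to 3 with array weights and without Ko1 and 81, and to 0 without Dap12-ko 67 and 68; leaving out 1 array gave 0 to 2. The added call was Srebf2 1452174_at, with Idi1 1451122_at (0.68) as the third under array weights and Hmgcs1 1433446_at (0.48) without Ko1 and 81. Pathway genes called, 0 as reported, were 1 with median centring, 10 with array weights, 10 without Ko1 and 81, and 1 without 67 and 68; leaving out 1 array gave 0 to 11. The cause was not tested.

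Sc5d 1451457_at ranged from 1.28 to 1.80 (adjusted p 0.00101 to 0.127) and Srebf2 1452174_at from -1.62 to -0.70 (0.00139 to 0.236). Averaged over all tested probe sets of the gene, Sc5d was at 0.72 (adjusted p 0.121) and Srebf2 at -0.54 (adjusted p 0.143). Signs turned as follows, with values given as log2 changes. After quantile normalization Hmgcs1 1433445_x_at was -0.044 and Sc5d 1434520_at 0.0077. With median centring Srebf2 1426744_at was -0.27, Insig1 -0.30, Hmgcs1 1433445_x_at -0.26, Hmgcs1 1433444_at -0.38 and Sqle -0.30. With array weights Hmgcs1 1433443_a_at was 0.027 and 1433444_at -0.11, and as a gene mean Hmgcs1 was 0.17. Without Dap12-ko 67 and 68 together Srebf2 1426744_at was -0.36, Insig1 -0.53 and Sqle -0.25. Without Ko1 and 81 together Hmgcs1 1433443_a_at was 0.021, 1433445_x_at -0.013 and 1433444_at -0.30. Leaving out 1 array at a time, Srebf2 1426744_at ranged from -0.088 to 0.37, Insig1 from -0.082 to 0.43, Sqle from -0.065 to 0.28, Dhcr7 from -0.64 to 0.015 and Sc5d 1434520_at from -0.18 to 0.021. In the same way Hmgcs1 1433443_a_at ranged from -0.048 to 0.040, 1433445_x_at from -0.045 to 0.26 and 1433444_at from -0.22 to 0.18. The omissions of 2 arrays together and the filter on mean signal were chosen after seeing the data. No paired analysis was possible because the sample names share no numbers between the groups. Dim probe sets such as Sc5d 1424709_at are limited by signal over background.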
